A study of Mus musculus with 10 samples.

Results

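Histone and DNA modifying enzymes were described here through 65 genes of the 13809 in a table of gene expression in mouse bone marrow macrophages. Members were taken by symbol, as all genes whose name begins with Kdm, Kmt, Hdac, Sirt followed by a digit, Dnmt, Setd, Prmt or Ezh, together with Tet1, Tet2 and Tet3. Kdm3a, Kdm5c, Kdm5d and Kdm6a were left out by the same rule, which removed 4 of 69 matching symbols. The members comprise 13 Kdm, 12 Setd, 11 Hdac, 7 Prmt, 7 Sirt, 5 Kmt, 5 Dnmt, 3 Tet and 2 Ezh genes. The rule uses symbols and no measured value, although it was proposed with earlier results of these data known. All 65 passed the filter on low values and were tested.

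RNA was sequenced from 10 libraries of C57BL/6 bone marrow, all from mice aged 12 weeks, with 2 origins of macrophage and 2 treatments. LPS-treated resident macrophages (3 libraries) and untreated resident macrophages (3 libraries) are the unstained marrow cells that a magnetic column held back, described by the submitters as CD163-positive. LPS-treated bone marrow derived macrophages, or BMDM (2 libraries), and untreated BMDM (2 libraries) are CD163-negative and were grown from the cells that ran through the same column, in medium with 20% L929 supernatant, a source of macrophage growth factor. The protocol gives 6 days of culture and the titles give 7. Lipopolysaccharide (LPS), a bacterial cell wall component sensed by Toll-like receptor 4, was given at 1 µg/ml for 4 h, and untreated cells received none. The resident fraction was not cultured as BMDM were, so origin and culture cannot be told apart. No label ties a replicate to its own animal, so the p-values here rest on differences between libraries that may be technical. Replicate 1 of both resident groups alone holds Y-linked transcripts, so the resident libraries do not all come from the same animals.

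These enzymes write and erase the chemical marks that tune how readily a gene is transcribed. Histone methyltransferases and demethylases add and remove methyl groups on histone tails, where methylation of lysine 4 of histone H3 (H3K4) marks promoters and enhancers in use and methylation of H3K27 or H3K9 accompanies silencing. Histone deacetylases and the NAD-dependent sirtuins remove acetyl groups, DNA methyltransferases methylate cytosine, and Tet dioxygenases oxidise methylcytosine as a step of its removal. In mouse macrophages some of these enzymes are themselves induced by LPS, with the H3K27 demethylase gene Kdm6b as the textbook case.

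Values are normalized reads, that is, gene reads divided by 1 factor per library. Recovered read totals ran from 27.1 to 37.7 M (mega) reads per library. The members together took 0.271 to 0.337% of all values in LPS-treated resident libraries, 0.285 to 0.343% in untreated resident libraries, 0.225 to 0.227% in LPS-treated BMDM and 0.295 to 0.316% in untreated BMDM. Of 8 macrophage marker genes none was at the floor of the table in any group. Between the origins 4 were called higher and 4 lower in resident libraries under either treatment. Spic and Cd163 were among the higher, Csf1r and Fcgr1 among the lower. The 8 summed to 0.428 to 0.483% of values in LPS-treated and 0.478 to 0.621% in untreated resident libraries. In BMDM they summed to 0.385 to 0.389% with LPS and 0.473 to 0.522% untreated. The LPS control genes Tnf, Il1b, Il6, Nos2 and Cxcl10 rose with LPS in both origins. Markers of other marrow cells moved with origin: 10 neutrophil markers summed to 1.02 to 1.22% and 0.676 to 1.42% of values in LPS-treated and untreated resident libraries, against 0.0036 to 0.00381% and 0.00588 to 0.00616% in LPS-treated and untreated BMDM. Ly6g was at the floor in all 4 BMDM libraries. Sums of 11 erythroid markers were 0.148 to 0.186% and 0.125 to 0.202% in LPS-treated and untreated resident libraries, against 0.00361 to 0.00382% and 0.00449 to 0.00546% in LPS-treated and untreated BMDM. All 10 neutrophil, 11 erythroid, 8 B lineage and 7 megakaryocyte and stem cell markers were called higher in resident libraries under either treatment. In bulk RNA, fewer cells of a type and less RNA per cell cannot be told apart. Replicate 1 of both resident groups is apart from the other 8 libraries in that it alone holds Y-linked transcripts. The X-linked RNA Xist was lower there, at 2172 with LPS and 1651 untreated, against 7873 or more in each of the other 8. Rn45s, a ribosomal RNA precursor, took 4.7% of untreated BMDM replicate 2 and at most 1.34% elsewhere.

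Changes are log2 values of the value plus 1, given with their standard error (SE) from a limma fit across all 13755 genes tested, and a gene is called at a Benjamini-Hochberg adjusted p under 0.05. "Rose", "fell", "higher" and "lower" are used of called genes.

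Promoter sequence was available from RefSeq (GRCm38.p6, the mm10 build) for 53 members, in 72 windows that reach from 250 bases before to 50 after a transcript start. No window was available for Hdac1, Hdac3, Hdac10, Kdm2a, Kdm3b, Kdm4b, Kdm5a, Kdm6b, Kmt2b, Kmt2e, Setd1b or Setdb2-phf11c. The median window of the members held 21.5 CG dinucleotides, and the median over all 32851 RefSeq windows was 7. The 4 motifs searched on both strands were GGGNNTTCC (kappa B), GAAANNGAA (interferon response element), TTTNGCGC (E2F) and CCAAT (NF-Y). Kappa B letters occurred in windows of 5 member genes (Hdac7, Kdm5b, Prmt9, Sirt2 and Sirt6), or 6.94% of member windows and 5.82% of all windows. The interferon response element occurred in 1 member gene, Hdac9, or 1.39% of member windows and 8.56% of all windows. E2F letters occurred in 2 member genes, Dnmt1 and Ezh2, or 2.78% of member windows and 1.38% of all windows. CCAAT occurred in 24 member genes, or 40.3% of member windows and 37.4% of all windows. A match describes these letters in this window and not a bound site.

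The windows below belong to Setdb2 and Tet2, which rose with LPS in BMDM, and to Hdac9, Dnmt1 and Ezh2. Of the 53 members searched, only Hdac9 held an interferon response element and only Dnmt1 and Ezh2 an E2F match. Capitals mark motif matches, and all 5 genes lie on the minus strand, so each line reads 5′ to 3′ along the transcript.
Setdb2, chr14:59440831-59441130, CCAAT in capitals: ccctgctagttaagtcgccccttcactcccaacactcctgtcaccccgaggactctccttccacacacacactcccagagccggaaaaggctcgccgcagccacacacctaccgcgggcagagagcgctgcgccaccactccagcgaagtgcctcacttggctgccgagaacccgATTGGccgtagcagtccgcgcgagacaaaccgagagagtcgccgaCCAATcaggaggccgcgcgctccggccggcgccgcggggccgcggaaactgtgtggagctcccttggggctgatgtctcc
Tet2, chr3:133544341-133544640, no match: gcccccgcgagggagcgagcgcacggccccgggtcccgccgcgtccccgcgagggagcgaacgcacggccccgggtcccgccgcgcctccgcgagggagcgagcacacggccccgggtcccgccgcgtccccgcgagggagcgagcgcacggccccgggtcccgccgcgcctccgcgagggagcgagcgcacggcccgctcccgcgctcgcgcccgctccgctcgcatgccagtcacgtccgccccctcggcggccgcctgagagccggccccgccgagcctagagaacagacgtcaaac
Hdac9, chr12:34528840-34529139, interferon response element in capitals: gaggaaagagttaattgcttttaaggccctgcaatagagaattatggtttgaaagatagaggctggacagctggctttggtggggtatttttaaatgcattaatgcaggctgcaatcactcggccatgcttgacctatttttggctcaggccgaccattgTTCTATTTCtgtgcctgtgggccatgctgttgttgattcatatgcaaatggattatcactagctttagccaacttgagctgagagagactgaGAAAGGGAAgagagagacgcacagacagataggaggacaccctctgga
Dnmt1, chr9:20952574-20952873, E2F and CCAAT in capitals: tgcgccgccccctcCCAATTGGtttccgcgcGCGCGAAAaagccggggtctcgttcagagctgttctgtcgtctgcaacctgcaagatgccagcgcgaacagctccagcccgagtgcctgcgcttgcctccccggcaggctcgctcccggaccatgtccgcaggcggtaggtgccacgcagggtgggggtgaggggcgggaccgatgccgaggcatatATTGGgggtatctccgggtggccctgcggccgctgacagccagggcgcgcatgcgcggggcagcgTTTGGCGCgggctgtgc
Ezh2, chr6:47594981-47595280, E2F and CCAAT in capitals: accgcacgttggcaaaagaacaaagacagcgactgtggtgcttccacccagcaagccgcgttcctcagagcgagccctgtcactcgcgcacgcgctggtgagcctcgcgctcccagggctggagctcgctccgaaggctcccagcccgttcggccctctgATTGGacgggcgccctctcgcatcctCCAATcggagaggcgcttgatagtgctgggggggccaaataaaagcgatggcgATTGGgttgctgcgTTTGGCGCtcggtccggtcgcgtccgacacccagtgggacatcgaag
The Tet2 window holds 57 CG and none of the 4 motifs, whereas the Hdac9 window holds 3 CG and 2 interferon response element matches, and the Setdb2 window holds 29 CG and 2 CCAAT matches. RefSeq lists other start sites for Hdac9 and Dnmt1, whose windows hold no E2F or interferon response element match.

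LPS called 9 of the 65 genes in resident macrophages. Of these 8 rose and 1 fell, or 12.3% and 1.54%, where 7.36% of all genes tested rose and 5.57% fell. The median change over members was 0.00, as over all genes. Tet2, Setdb2-phf11c, Kdm6b, Hdac9, Kdm2b, Kdm4a, Kmt2b and Sirt1 rose, by 0.34 (Sirt1) to 1.02 (Tet2), and Dnmt3a fell by 0.56. The 5 LPS control genes summed to 0.955 to 0.973% of values in LPS-treated and 0.39 to 0.516% in untreated resident libraries, against 1.69 to 1.74% in LPS-treated and 0.00951 to 0.0104% in untreated BMDM. All 5 were called higher in untreated resident macrophages than in untreated BMDM, and the part of this starting level in the count of members called was not tested. The Tet2, Hdac9 and Kdm4a calls held in all 22 alternative settings; those of Kmt2b and Sirt1 were lost in 13 and 12 of them. The count was 4 higher and 0 lower when the resident libraries were fitted without BMDM, and 5 higher and 0 lower without LPS-treated replicate 2 or without untreated replicate 3. It was 9 higher and 4 lower without untreated replicate 1, and 10 higher and 3 lower without replicate 1 of both resident groups. A term for that pair of libraries gave 12 higher and 6 lower, and 3449 genes called in all against 1779 without it. Of all genes called, 56.9% were higher as deposited and 27.1% at equal library totals, which left 4 members higher and 5 lower.

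In BMDM the same dose and time changed 42 of the 65. Of these 20 rose and 22 fell, or 30.8% and 33.8%, where 28.3% of all genes tested rose and 29.5% fell, so the share of members called lay near that of all genes. Changes ran from -3.42 (Hdac5) to 4.31 (Setdb2-phf11c), with a median of -0.06 over members and -0.04 over all genes. By role, Dnmt1, Dnmt3a and the antisense RNA Dnmt3aos fell among 5 Dnmt genes and none rose, all 3 class IIb and IV deacetylases fell, and 6 of 13 lysine demethylases rose and 3 fell. No test compared the roles with other genes. LPS-treated BMDM libraries sum to 38.6 to 38.8 M normalized reads and untreated BMDM to 24.7 to 26 M, so the count depends on the scaling. Forcing equal library totals moved the median of all genes to -0.64, left 8 members higher and 43 lower, and turned round the sign of the change for 9 of the 20 that rose, those of Hdac2, Kdm3b, Kdm7a, Kmt2d, Setd1b, Setd2, Setd3, Setd5 and Sirt6. Of all genes called, 49% were higher as deposited, 21.7% at equal totals and 40.1% after quantile normalization.

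**Figure D1:**
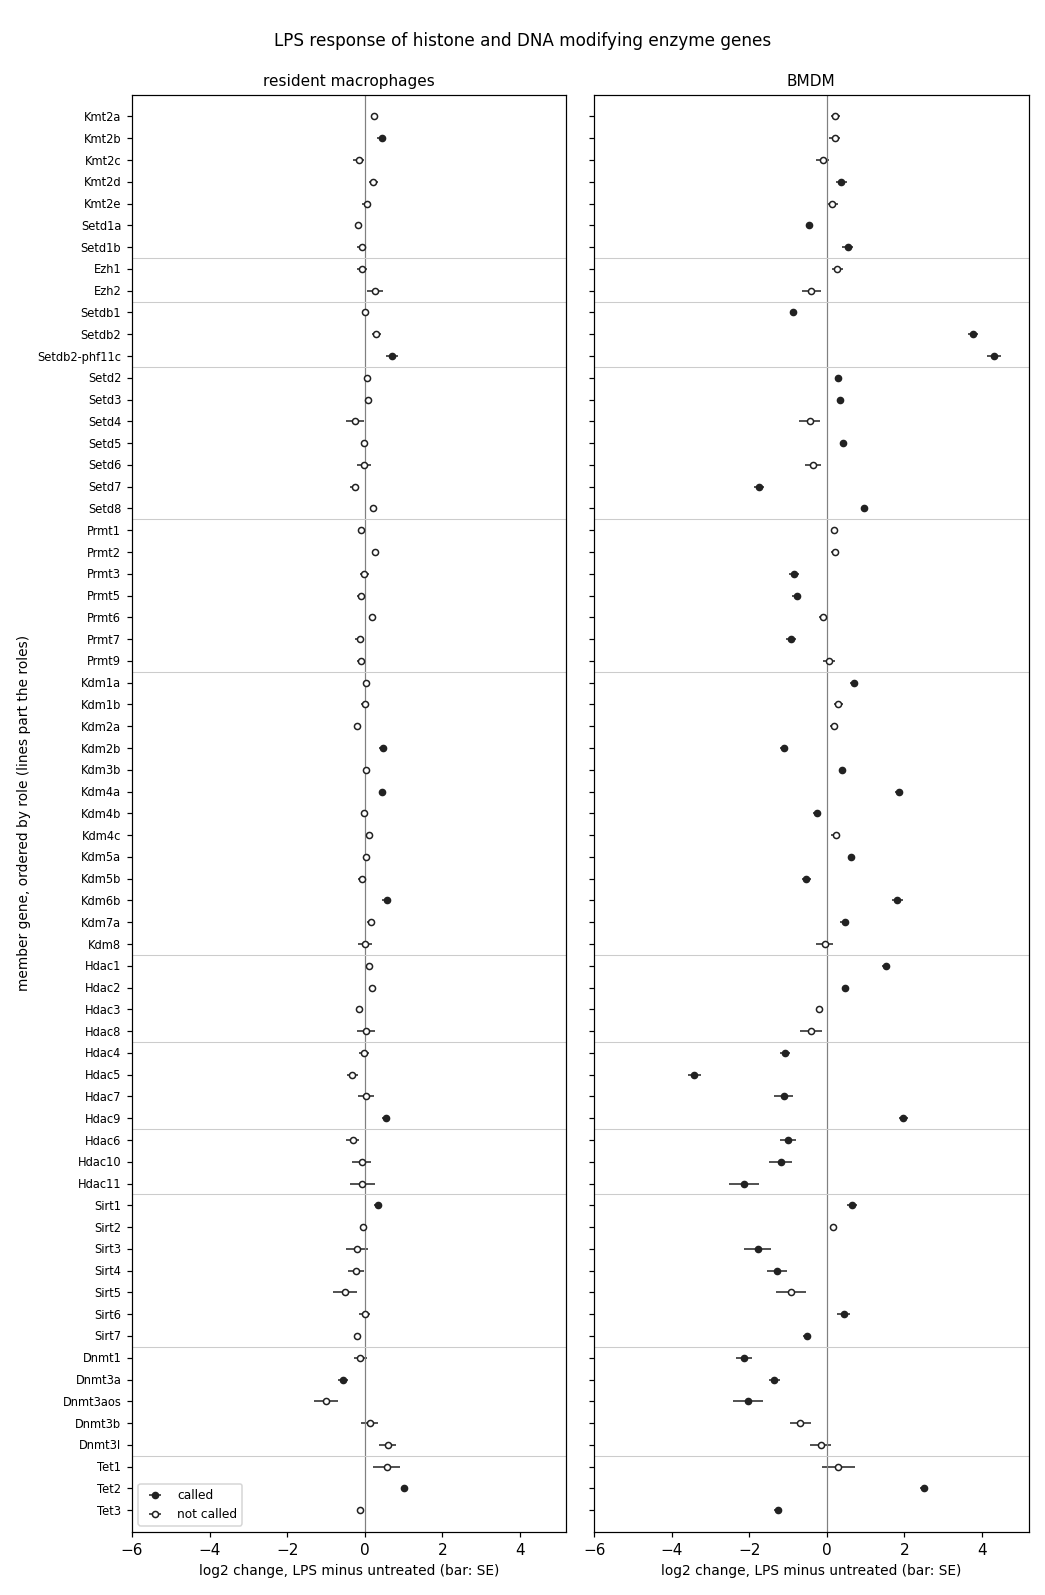
LPS response of the 65 genes, as log2 change of LPS-treated minus untreated cells with its SE (horizontal axis), in resident macrophages (left) and BMDM (right), ordered by role. Filled points are called; in resident macrophages they lie between -0.56 and 1.02, and in BMDM between -3.42 and 4.31.

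The responses of the origins were compared as a difference, resident minus BMDM, in the same fit. It was called for 32 members, 17 higher and 15 lower (26.2% and 23.1%), where 19% of all genes tested were higher and 22.8% lower. Setdb2 and Setdb2-phf11c had the lowest differences, -3.48 ± 0.17 (adjusted p = 1.34e-07) and -3.61 ± 0.25 (adjusted p = 1.24e-06). Hdac5 had the highest, 3.10 ± 0.22 (adjusted p = 1.82e-06). Kdm2b alone among the 65 was called in opposite directions, rising in resident macrophages and falling in BMDM. Of all genes with a called difference, 45.5% were higher as deposited, 75.2% at equal library totals (30 members higher and 7 lower) and 56.9% after quantile normalization.

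**Figure D2:**
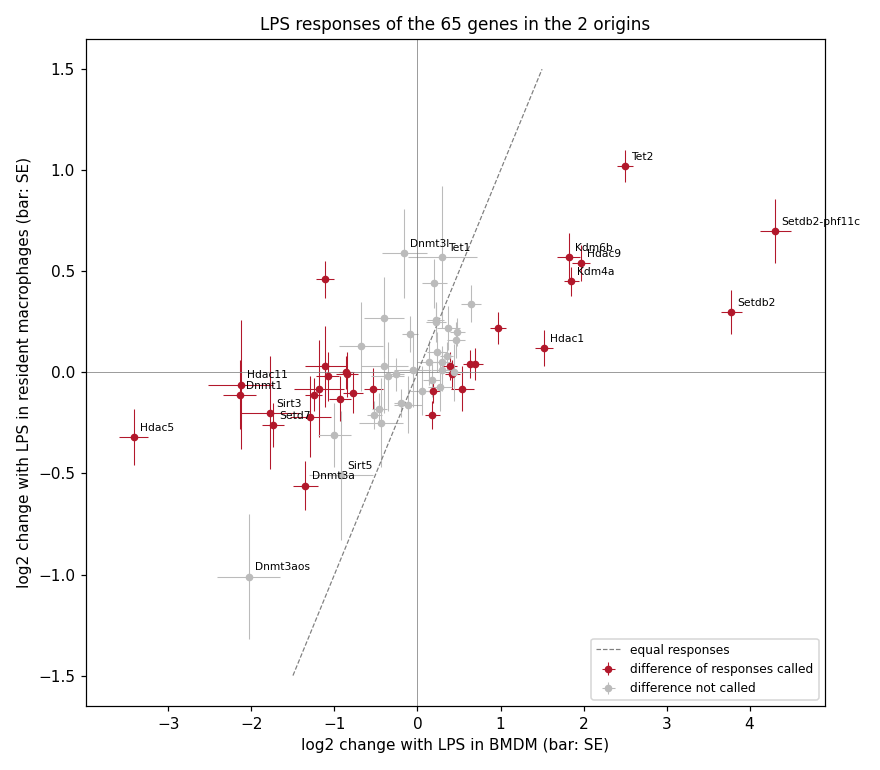
Log2 change with LPS in BMDM (horizontal axis) against that in resident macrophages (vertical axis) for the 65 genes, with SE bars. Red points are the 32 genes with a called difference of responses, and the dashed line marks equal responses; Tet2 lies at 2.50 and 1.02, and Kdm2b at -1.11 and 0.46.

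More members were called between the origins than with LPS in resident macrophages, and the same held over all genes tested. Among untreated libraries 24 members were higher and 22 lower in resident macrophages than in BMDM (36.9% and 33.8%), where 39.2% of all genes tested were higher and 32.6% lower. With LPS 30 were higher and 20 lower (46.2% and 30.8%), where 36.7% of all genes were higher and 34.5% lower. The median difference over members was -0.02 untreated and 0.10 with LPS, and over all genes 0.08 and 0.03. Of all genes called with LPS, 51.5% were higher in resident macrophages as deposited and 68.2% at equal library totals, which left 36 members higher and 13 lower. Among untreated libraries 54.6% were higher as deposited and 41.6% after quantile normalization. Sums of neutrophil, erythroid, B lineage and megakaryocyte and stem cell markers differ between the origins as well, and their part in these differences was not tested. The untreated and LPS comparisons of 1 origin share their libraries with the comparisons of origin, so values are set side by side below.

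**Figure D3:**
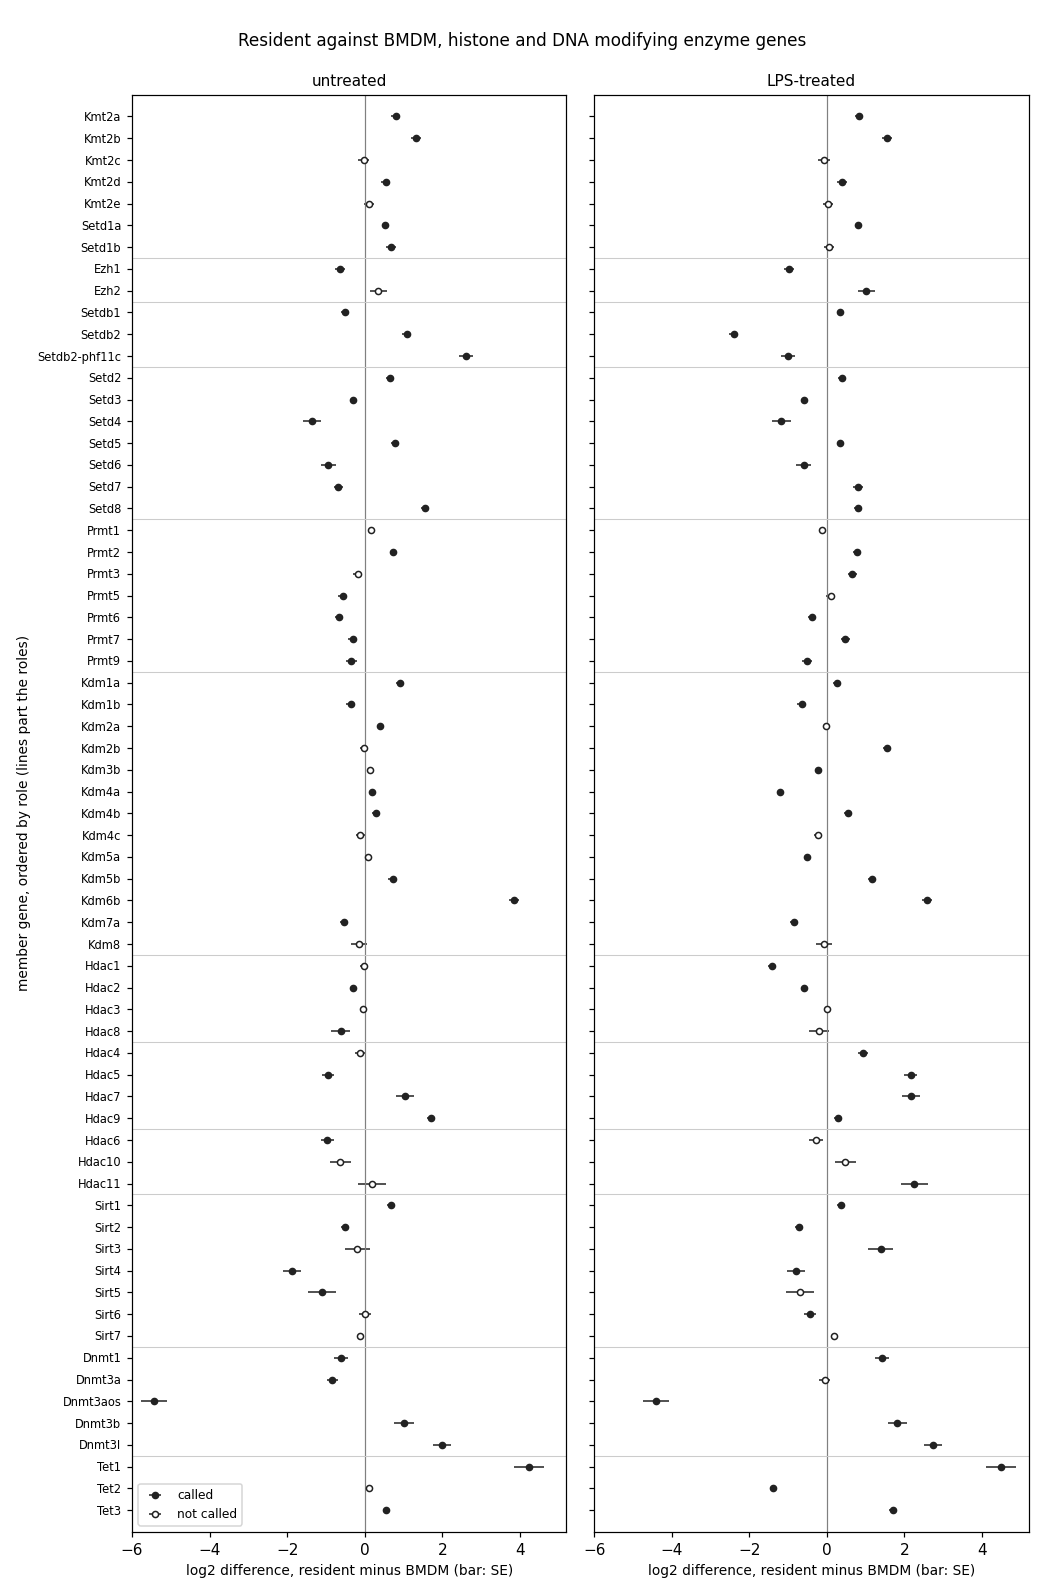
Log2 difference of resident macrophages minus BMDM with its SE (horizontal axis) for the 65 genes, among untreated libraries (left) and LPS-treated libraries (right). Filled points are called; Tet1 lies at 4.23 and 4.50 and Dnmt3aos at -5.43 and -4.40, the ends of both panels.

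Tet dioxygenases divided into a gene induced in both origins, a gene that fell in BMDM and a gene read almost only in the resident fraction. Tet2, at chr3:133463679-133545139, had 1460, 1695 and 1656 normalized reads in LPS-treated resident macrophages, against 834, 735 and 806 in untreated ones. BMDM had 4163 and 4146 with LPS, against 747 and 724 without. LPS-treated libraries lay above untreated ones in both origins with no overlap, and the untreated groups overlapped. The rise was 1.02 ± 0.08 (adjusted p = 0.000106) in resident macrophages, or 2.02-fold, and 2.50 ± 0.10 (adjusted p = 7.39e-09) in BMDM, or 5.64-fold, and the difference of the responses was -1.48 ± 0.12 (adjusted p = 5.99e-06). With LPS, Tet2 was lower in resident macrophages than in BMDM (-1.38 ± 0.09, adjusted p = 3.67e-07).

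Tet3 had 2733, 2957 and 3285 in LPS-treated and 3173, 3208 and 3250 in untreated resident macrophages. In BMDM it had 859 and 982 with LPS, against 2180 and 2204 without, so it fell (-1.25 ± 0.10, adjusted p = 1.72e-06) in BMDM, while the resident groups overlapped (-0.11 ± 0.08, adjusted p = 0.456). Tet3 was higher in resident macrophages with LPS (1.70 ± 0.09, adjusted p = 1.03e-07) and untreated (0.55 ± 0.09, adjusted p = 0.000299). Tet1, at chr10:62804570-62908996, had 87.7, 132 and 132 and 47.3, 99.7 and 98.1 in LPS-treated and untreated resident macrophages, against 3.08 and 5.42 and 3.65 and 2.74 in LPS-treated and untreated BMDM. Those BMDM values are 7 reads in each group, so the ratio is loose: 28.4 with LPS (95% exact Poisson interval 13.6 to 71.1) and 25.3 untreated (12.1 to 63.7), for counting error only. Replicate 1 was the lowest of both resident groups. The fitted differences of origin were 4.50 ± 0.39 (adjusted p = 3.12e-06) with LPS and 4.23 ± 0.39 (adjusted p = 4.41e-06) untreated, and Tet1 passed no test of LPS in either origin.

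DNA methyltransferase genes were lower in LPS-treated than in untreated BMDM where they changed. Dnmt1 copies methylation onto the new strand after replication. It lies at chr9:20907209-20959888 and had 1404, 1928 and 2077 normalized reads in LPS-treated resident macrophages, against 1575, 1871 and 2401 in untreated ones. In BMDM it had 640 and 692 with LPS, against 2996 and 2885 without. The BMDM groups were far apart and the resident groups overlapped, so Dnmt1 fell in BMDM (-2.14 ± 0.20, adjusted p = 8.03e-06) and was not called in resident macrophages (-0.11 ± 0.17, adjusted p = 0.741). The difference of responses was 2.03 ± 0.26 (adjusted p = 0.00015). Resident macrophages were higher than BMDM with LPS (1.42 ± 0.19, adjusted p = 6.81e-05) and lower untreated (-0.61 ± 0.19, adjusted p = 0.013); the untreated call was lost without untreated BMDM replicate 1 (adjusted p = 0.0702) or replicate 2 (adjusted p = 0.0515). The 19 cell cycle genes moved beside it: 14 fell and none rose with LPS in BMDM, where 29.5% of all genes fell and 28.3% rose. In resident macrophages 0 of the 19 were called, where 7.36% of all genes rose and 5.57% fell. Their sum was 0.0755 to 0.0759% of values in LPS-treated BMDM, against 0.14 to 0.153% in untreated BMDM, and its part in the Dnmt1 change was not tested.

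Dnmt3a, which sets methylation on unmethylated DNA, was the only member that fell with LPS in both origins. It had 3023, 3148 and 4159 in LPS-treated resident macrophages, against 5264, 4395 and 5511 in untreated ones, and 3572 and 3518 in LPS-treated BMDM, against 8775 and 9306 in untreated BMDM. Neither pair overlapped, and the LPS-treated groups of the origins did. The fall was -0.56 ± 0.12 (adjusted p = 0.0168) in resident macrophages and -1.35 ± 0.15 (adjusted p = 2.89e-05) in BMDM, with a difference of 0.79 ± 0.20 (adjusted p = 0.00904). The resident call was lost without LPS-treated replicate 2 (adjusted p = 0.0668) or untreated replicate 3 (adjusted p = 0.0565). Dnmt3aos, an RNA on the opposite strand inside the Dnmt3a locus at chr12:3859293-3862244, is uncertain because the counting strand is not given. It had 1.85, 1.07 and 1.96 and 2.68, 5.7 and 4.76 in LPS-treated and untreated resident libraries, against 53.5 and 54.2 and 246 and 203 in LPS-treated and untreated BMDM. The resident values are 5 reads with LPS and 14 untreated over 3 libraries each, 32.6-fold (13.5 to 103) and 51.7-fold (30.5 to 95.3) below BMDM by the same exact interval. Dnmt3aos fell in BMDM (-2.03 ± 0.38, adjusted p = 0.00097).

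Dnmt3b, a further de novo enzyme, had 105, 130 and 104 and 73.1, 123 and 122 in LPS-treated and untreated resident macrophages, against 29.8 and 32.5 and 50.1 and 51.2 in LPS-treated and untreated BMDM. Dnmt3l, a partner without catalytic activity that stimulates the de novo enzymes, had 85, 83.7 and 73.6 and 45.5, 54.1 and 61 in LPS-treated and untreated resident macrophages, against 10.3 and 12.2 and 10.9 and 14.6 in LPS-treated and untreated BMDM. Both were higher in every resident library than in any BMDM library, and neither passed the test of LPS in either origin. The differences with LPS were 1.82 ± 0.25 (adjusted p = 9.01e-05) for Dnmt3b and 2.74 ± 0.24 (adjusted p = 4.1e-06) for Dnmt3l, and untreated they were 1.01 ± 0.25 (adjusted p = 0.00426) and 1.99 ± 0.24 (adjusted p = 4.06e-05).

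**Figure D4:**
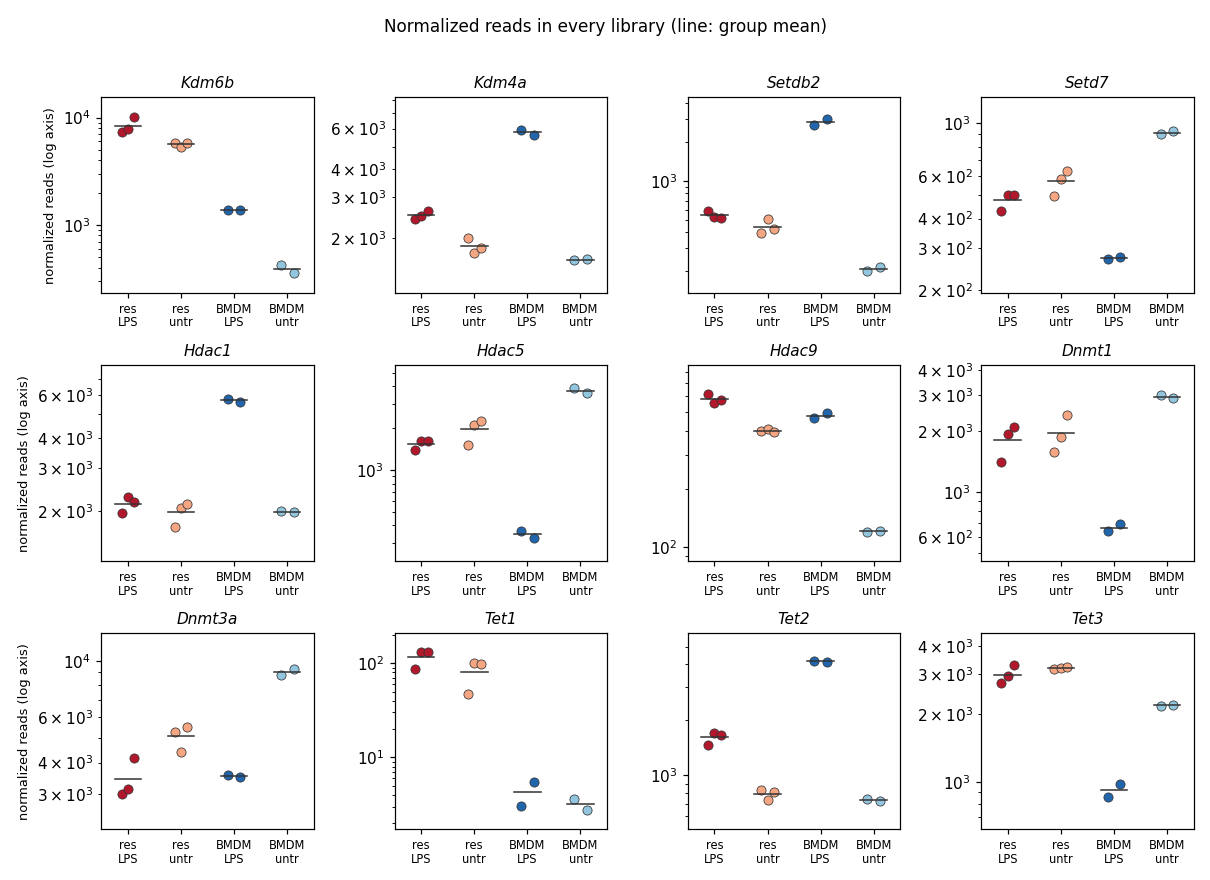
Normalized reads on a log axis for 12 members in each library, as points, with the group mean as a line, for LPS-treated and untreated resident macrophages (res) and LPS-treated and untreated BMDM. Tet2 and Kdm4a are highest in LPS-treated BMDM, Kdm6b in LPS-treated resident macrophages, and Hdac5, Dnmt1 and Tet3 are lowest in LPS-treated BMDM.

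Among lysine demethylases the widest contrast was that of Kdm6b, which removes methyl groups from H3K27. Kdm6b, at chr11:69398508-69413675, had 7350, 7825 and 10096 normalized reads in LPS-treated resident macrophages, against 5743, 5329 and 5803 in untreated ones. In BMDM it had 1393 and 1380 with LPS, against 428 and 357 without. Every resident library, treated or not, lay above every BMDM library, and within each origin LPS-treated libraries lay above untreated ones. It rose by 0.57 ± 0.12 (adjusted p = 0.0118) in resident macrophages and by 1.82 ± 0.14 (adjusted p = 1.64e-06) in BMDM, and the difference of responses was -1.25 ± 0.18 (adjusted p = 0.000345). Untreated resident macrophages exceeded untreated BMDM by 3.84 ± 0.13 (adjusted p = 3.03e-09), or 14.3-fold, and with LPS by 2.59 ± 0.13 (adjusted p = 7.41e-08), or 6.01-fold. Per kb of exon Kdm6b had the highest level of the members in LPS-treated resident macrophages, 1211 normalized reads per kb, and 56.5 in untreated BMDM. The resident rise lost its call when only the resident groups were fitted.

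Kdm4a acts on H3K9 and H3K36 methylation. It had 2424, 2489 and 2620 in LPS-treated resident macrophages, against 1991, 1721 and 1807 in untreated ones, and 5927 and 5627 in LPS-treated BMDM, against 1594 and 1614 in untreated BMDM. The groups of each origin did not overlap, and the BMDM rise was the steeper: 0.45 ± 0.07 (adjusted p = 0.00348) in resident macrophages and 1.85 ± 0.09 (adjusted p = 2.92e-08) in BMDM, with a difference of -1.40 ± 0.11 (adjusted p = 4.05e-06). With LPS resident macrophages were lower (-1.20 ± 0.08, adjusted p = 4.42e-07). The small untreated difference (0.19 ± 0.08, adjusted p = 0.0454) was lost on leaving out any of 7 of the 10 libraries, with adjusted p of 0.0593 to 0.168.

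Kdm2b, an H3K36 demethylase that also brings a Polycomb complex to CpG islands, had 1158, 1053 and 1214 in LPS-treated resident macrophages, against 779, 806 and 908 in untreated ones. In BMDM it had 381 and 401 with LPS, against 842 and 854 without. The 2 untreated groups overlapped, and LPS-treated cells lay above them in resident macrophages and below them in BMDM. It rose by 0.46 ± 0.09 (adjusted p = 0.00803) in resident macrophages and fell (-1.11 ± 0.11, adjusted p = 7.31e-06) in BMDM, with a difference of 1.57 ± 0.14 (adjusted p = 7.52e-06). The resident rise was not called at equal library totals or when only resident groups were fitted. Kdm5b, which demethylates H3K4, had 844, 781 and 893 and 943, 806 and 921 in LPS-treated and untreated resident macrophages, against 405 and 345 and 552 and 527 in LPS-treated and untreated BMDM. It was higher in all resident libraries, by 1.16 ± 0.11 (adjusted p = 5.83e-06) with LPS and 0.72 ± 0.11 (adjusted p = 0.00018) untreated, and fell with LPS in BMDM (-0.53 ± 0.12, adjusted p = 0.00329). Changes of the other 9 demethylase genes with LPS in BMDM ran from -0.26 (Kdm4b) to 0.69 (Kdm1a). Of these 4 rose and 1 fell, where 28.3% of all genes rose and 29.5% fell. None of the 9 was called in resident macrophages, where 7.36% of all genes rose and 5.57% fell. Kdm5a, a further H3K4 demethylase, rose in BMDM by 0.63 and was lower in resident macrophages with LPS (-0.52). Kdm1b and Kdm7a were lower in resident macrophages with LPS (-0.65 and -0.84) and untreated (-0.36 and -0.54), and Kdm2a was higher in untreated resident macrophages (0.39). The untreated Kdm1b call was lost without untreated BMDM replicate 2 (adjusted p = 0.0754). Kdm4c and Kdm8 were called in none of the 5 comparisons. Kdm4b lost its call in BMDM on leaving out any of 8 libraries (adjusted p 0.0525 to 0.363).

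The histone methyltransferase genes with the steepest response were those of the Setdb2 locus. Setdb2 methylates H3K9 and is known in mouse macrophages as an interferon-induced gene. At chr14:59402009-59440884, it had 587, 524 and 517 normalized reads in LPS-treated resident macrophages, against 394, 509 and 424 in untreated ones, and 2719 and 3002 in LPS-treated BMDM, against 201 and 215 in untreated BMDM. The LPS-treated BMDM libraries stood far above all other libraries and untreated BMDM below them. It rose by 3.78 ± 0.13 (adjusted p = 4.02e-09) in BMDM, or 13.7-fold, and the resident change of 0.30 ± 0.11 (adjusted p = 0.103) was not called although its groups did not overlap. Resident macrophages were lower than BMDM with LPS (-2.40 ± 0.12, adjusted p = 7.97e-08) and higher untreated (1.08 ± 0.12, adjusted p = 2.11e-05). Setdb2-phf11c is the table's name for a transcript that RefSeq lists across Setdb2 and its neighbour Phf11c. It is counted separately there, but how reads that fit both names were assigned is not given. The values of Setdb2 and Setdb2-phf11c may therefore not be independent.

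Setdb2-phf11c had 886, 1227 and 1032 in LPS-treated resident macrophages, against 608, 713 and 606 in untreated ones. In BMDM it had 2068 and 2085 with LPS, against 126 and 85.9 without. It followed the order of Setdb2 across the groups. It rose in resident macrophages by 0.70 ± 0.16 (adjusted p = 0.0173) and in BMDM by 4.31 ± 0.19 (adjusted p = 1.95e-08). The resident call was lost without LPS-treated replicate 2 (adjusted p = 0.066) or untreated replicate 3 (adjusted p = 0.0557). With LPS it was lower in resident macrophages than in BMDM (-1.0 ± 0.17, adjusted p = 0.000462), and untreated it was higher, by 2.61 ± 0.17 (adjusted p = 4.37e-07). Setdb1, which also methylates H3K9, fell in BMDM (-0.86 ± 0.09, adjusted p = 2.01e-05) and did not pass the test in resident macrophages (0.00 ± 0.08, adjusted p = 0.989).

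Of the 7 Kmt2 and Setd1 genes, grouped here by name as H3K4 methyltransferases, 4 were called higher in resident macrophages with LPS (57.1%, where 36.7% of all genes were) and 5 untreated (71.4%, where 39.2% were), and none was called lower. Among these calls, that of Kmt2d with LPS was lost without LPS-treated BMDM replicate 1 or replicate 2, with differences of 0.41 and 0.38. Setd7, which also methylates H3K4 and is described with the other SET-domain genes, was lower in untreated resident macrophages (-0.68). Kmt2b, at chr7:30568858-30588726, had 4598, 5279 and 6792 in LPS-treated and 3941, 4026 and 4186 in untreated resident macrophages, against 1892 and 1819 and 1647 and 1588 in LPS-treated and untreated BMDM. All resident libraries lay above all BMDM libraries, by 1.56 ± 0.13 (adjusted p = 2.9e-06) with LPS and 1.32 ± 0.13 (adjusted p = 8.88e-06) untreated. The resident rise with LPS (0.44 ± 0.12, adjusted p = 0.0385) lost its call on leaving out any of 9 of the 10 libraries, with adjusted p of 0.055 to 0.0888. Kmt2a, the founding member of the MLL family, had 1940, 2374 and 2573 and 1939, 1853 and 1980 in LPS-treated and untreated resident macrophages, against 1224 and 1342 and 1147 and 1062 in LPS-treated and untreated BMDM. It was higher in all resident libraries, by 0.83 ± 0.11 (adjusted p = 8.28e-05) with LPS and 0.80 ± 0.11 (adjusted p = 0.000105) untreated, and its LPS changes, 0.25 ± 0.10 (adjusted p = 0.145) in resident macrophages and 0.22 ± 0.12 (adjusted p = 0.162) in BMDM, were not called. Kmt2d and Setd1b rose with LPS in BMDM, by 0.37 and 0.54, with the opposite sign at equal library totals, and Setd1a fell by 0.46. The Kmt2d call was lost on leaving out any of 5 libraries (adjusted p 0.0501 to 0.162), and that of Setd1b without LPS-treated BMDM replicate 1 (adjusted p = 0.053) or untreated BMDM replicate 2 (adjusted p = 0.0627). Kmt2c and Kmt2e were called in none of the 5 comparisons.

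Ezh2, the catalytic subunit of Polycomb repressive complex 2, passed no test of LPS. It had 654, 946 and 874 in LPS-treated and 487, 759 and 826 in untreated resident macrophages, against 432 and 374 and 526 and 534 in LPS-treated and untreated BMDM. Replicate 1 was the lowest of both resident groups. With LPS every resident library lay above both BMDM libraries, and Ezh2 was higher by 1.02 ± 0.22 (adjusted p = 0.00192), whereas the untreated groups overlapped (0.35 ± 0.22, adjusted p = 0.182). Its paralog Ezh1 went the other way, lower in resident macrophages (-0.98 ± 0.13, adjusted p = 6.95e-05) with LPS and -0.64 ± 0.13 (adjusted p = 0.0012) untreated.

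The remaining SET-domain genes differed by member. Setd2, which places H3K36 trimethylation, and Setd5 were higher in resident macrophages with LPS (0.39 and 0.34) and untreated (0.64 and 0.77), and Setd3 and Setd6 were lower with LPS (-0.58 and -0.60) and untreated (-0.30 and -0.94). The LPS call of Setd6 was lost without LPS-treated BMDM replicate 1 (adjusted p = 0.127), and the untreated call of Setd3 without untreated BMDM replicate 2 (adjusted p = 0.0575). Setd7, which monomethylates H3K4 and several other proteins, had 429, 502 and 502 in LPS-treated resident macrophages, against 499, 585 and 633 in untreated ones, and 270 and 275 in LPS-treated BMDM, against 899 and 931 in untreated BMDM. The resident groups overlapped and lay between the BMDM groups. It fell in BMDM (-1.74 ± 0.13, adjusted p = 1.34e-06), against -0.26 ± 0.11 (adjusted p = 0.154) in resident macrophages, a difference of 1.49 ± 0.17 (adjusted p = 6.26e-05). Setd8, named Kmt5a in GENCODE, monomethylates histone H4 and acts in the cell cycle. It had 6164, 5392 and 6050 and 5465, 4613 and 5035 in LPS-treated and untreated resident macrophages, against 3420 and 3313 and 1737 and 1697 in LPS-treated and untreated BMDM. Resident libraries were all higher, by 0.80 ± 0.09 (adjusted p = 2.06e-05) with LPS and 1.55 ± 0.09 (adjusted p = 1.42e-07) untreated, and the rise with LPS was called in BMDM (0.97 ± 0.10, adjusted p = 1.2e-05). Setd4 was among the lowest members, with 26.8, 32.2 and 40.2 and 34.8, 44.6 and 38.1 in LPS-treated and untreated resident macrophages, against 80.2 and 69.1 and 116 and 88.7 in LPS-treated and untreated BMDM. It was lower in all resident libraries (-1.17 ± 0.24, adjusted p = 0.00159) with LPS and -1.36 ± 0.24 (adjusted p = 0.000592) untreated.

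Changes of the 7 arginine methyltransferase genes with LPS ran from -0.13 to 0.26 in resident macrophages and from -0.93 to 0.22 in BMDM. None of the 7 was called in resident macrophages, where 7.36% of all genes rose and 5.57% fell. In BMDM Prmt3, Prmt5 and Prmt7 fell (-0.85, -0.78 and -0.93) and none rose, where 29.5% of all genes fell and 28.3% rose. The difference of responses was called higher for these 3 (0.84, 0.68 and 0.80) and lower for Prmt1 (-0.28 ± 0.10, adjusted p = 0.0456). The Prmt1 call was lost in 10 of 21 alternative settings, and its sign turned round in 2 of the others, at equal library totals and after quantile normalization. Prmt6 and Prmt9 were lower in resident macrophages with LPS (-0.38 and -0.51) and untreated (-0.66 and -0.35), the last of these values losing its call without any 1 of 6 libraries (adjusted p 0.0507 to 0.135). Prmt2, a weak member of the family, was higher in resident macrophages, by 0.77 ± 0.09 (adjusted p = 3.74e-05) with LPS and 0.74 ± 0.09 (adjusted p = 5.2e-05) untreated.

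Class I deacetylases form the core of nuclear corepressor complexes, and Hdac1 was the member of the class that moved most. It lies at chr4:129516104-129542713 and had 1956, 2283 and 2168 normalized reads in LPS-treated resident macrophages, against 1716, 2064 and 2135 in untreated ones, and 5782 and 5651 in LPS-treated BMDM, against 1991 and 1985 in untreated BMDM. The LPS-treated BMDM libraries stood above all others, and the other 3 groups overlapped. It rose in BMDM by 1.52 ± 0.11 (adjusted p = 1.03e-06), or 2.87-fold, against 0.12 ± 0.09 (adjusted p = 0.463) in resident macrophages, with a difference of -1.40 ± 0.14 (adjusted p = 2.71e-05). With LPS resident macrophages were lower (-1.42 ± 0.10, adjusted p = 8.72e-07). In LPS-treated BMDM it had the highest level of the members, 1659 normalized reads per kb of exon. Hdac2 rose in BMDM by 0.48 as deposited, with the opposite sign at equal library totals, and Hdac3 and Hdac8 were not called in either origin. Hdac3 was called in none of the 5 comparisons.

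Class IIa deacetylases shuttle between nucleus and cytoplasm and restrain MEF2 transcription factors. All 4 were higher in resident macrophages than in BMDM with LPS, where 36.7% of all genes were higher. In BMDM 3 fell with LPS and Hdac9 rose, where 29.5% of all genes fell and 28.3% rose. Hdac5, at chr11:102194432-102230166, had 1383, 1632 and 1623 in LPS-treated resident macrophages, against 1509, 2117 and 2249 in untreated ones. In BMDM it had 365 and 326 with LPS, against 3863 and 3574 without. The BMDM groups lay on either side of all resident libraries, which overlapped between treatments. Hdac5 fell in BMDM (-3.42 ± 0.17, adjusted p = 5.19e-08), or 10.7-fold, the largest fall of the 65, and its resident change was -0.32 ± 0.14 (adjusted p = 0.165). Resident macrophages were higher with LPS (2.16 ± 0.16, adjusted p = 9.39e-07) and lower untreated (-0.94 ± 0.16, adjusted p = 0.000333).

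Hdac9, at chr12:34047580-34917095, had 616, 553 and 576 in LPS-treated resident macrophages, against 399, 407 and 393 in untreated ones, and 463 and 492 in LPS-treated BMDM, against 120 and 122 in untreated BMDM. LPS-treated libraries lay above untreated ones in both origins, and untreated BMDM were the lowest. The rise was 0.54 ± 0.09 (adjusted p = 0.0042) in resident macrophages and 1.97 ± 0.11 (adjusted p = 1.05e-07) in BMDM, with a difference of -1.43 ± 0.14 (adjusted p = 1.84e-05). Untreated resident macrophages were higher by 1.71 ± 0.10 (adjusted p = 1.42e-07), and with LPS by 0.28 ± 0.10 (adjusted p = 0.0244). The LPS call was lost without LPS-treated resident replicate 1 (adjusted p = 0.0669), LPS-treated BMDM replicate 1 (adjusted p = 0.141) or replicate 2 (adjusted p = 0.0567). Its window above is the only member window with an interferon response element.

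Hdac4 had 570, 556 and 669 in LPS-treated and 653, 518 and 658 in untreated resident macrophages, against 318 and 302 and 679 and 633 in LPS-treated and untreated BMDM. Hdac7 had 538, 744 and 840 and 513, 715 and 858 in LPS-treated and untreated resident macrophages, against 142 and 164 and 334 and 329 in LPS-treated and untreated BMDM. For both genes LPS-treated BMDM were the lowest group, with no overlap, and the resident groups overlapped. The BMDM fall was -1.08 ± 0.14 (adjusted p = 8.93e-05) for Hdac4 and -1.11 ± 0.25 (adjusted p = 0.00298) for Hdac7. The difference of responses was 1.06 ± 0.18 (adjusted p = 0.00106) for Hdac4. For Hdac7 it was 1.15 ± 0.32 (adjusted p = 0.0156), lost without LPS-treated BMDM replicate 1 (adjusted p = 0.0698) or untreated BMDM replicate 1 (adjusted p = 0.0535).

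Of the class IIb and IV genes, Hdac10, a polyamine deacetylase, had 145, 202 and 265 and 154, 216 and 275 in LPS-treated and untreated resident macrophages, against 147 and 137 and 326 and 324 in LPS-treated and untreated BMDM. It fell in BMDM (-1.19 ± 0.30, adjusted p = 0.00584), and the difference of responses (1.11 ± 0.38, adjusted p = 0.04) was lost on leaving out any of 8 libraries (adjusted p 0.0555 to 0.121). Hdac11, the sole class IV enzyme, had 24, 21.5 and 25.5 and 24.1, 18 and 34.3 in LPS-treated and untreated resident macrophages, against 3.08 and 5.42 and 17.3 and 26.5 in LPS-treated and untreated BMDM. LPS-treated BMDM were the lowest group, at 7 reads against 48 in untreated BMDM, a 5.35-fold lower value (95% exact interval 2.41 to 14). The fitted fall was -2.13 ± 0.39 (adjusted p = 0.000922). Hdac6, which acts on tubulin in the cytoplasm, fell in BMDM (-1.0 ± 0.20, adjusted p = 0.00158).

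Of the 7 sirtuin genes, 2 rose and 3 fell with LPS in BMDM, where 28.3% of all genes rose and 29.5% fell. Sirt1, a nuclear deacetylase that acts on histones and transcription factors, had 1590, 1505 and 1484 in LPS-treated resident macrophages, against 1405, 1089 and 1145 in untreated ones, and 1182 and 1185 in LPS-treated BMDM, against 730 and 776 in untreated BMDM. LPS-treated libraries were higher in both origins. The rise in BMDM was 0.65 ± 0.12 (adjusted p = 0.000722), no longer called at equal library totals. That in resident macrophages (0.34 ± 0.09, adjusted p = 0.0423) was lost on leaving out any of 9 libraries, with adjusted p of 0.0732 to 0.125. Resident macrophages were higher untreated (0.68 ± 0.11, adjusted p = 0.000217) and with LPS (0.37 ± 0.11, adjusted p = 0.0102), a call lost without LPS-treated BMDM replicate 1 (adjusted p = 0.055) or replicate 2 (adjusted p = 0.0533).

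Among the other sirtuins, Sirt2 was lower in resident macrophages with LPS (-0.73) and untreated (-0.52). In BMDM Sirt6, a chromatin-bound deacetylase, rose by 0.44, with the opposite sign at equal library totals, and Sirt7, an enzyme of the nucleolus, fell by 0.52. The Sirt6 call was lost on leaving out any of 5 libraries (adjusted p 0.0531 to 0.228).

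Of the 3 sirtuins of mitochondria, Sirt3 and Sirt4 fell with LPS in BMDM. Sirt3, the main mitochondrial deacetylase, had 102, 180 and 128 and 111, 168 and 191 in LPS-treated and untreated resident macrophages, against 63.8 and 39.3 and 201 and 152 in LPS-treated and untreated BMDM. Sirt4, which restrains glutamate dehydrogenase, had 46.2, 32.2 and 37.3 and 41.9, 38.9 and 54.3 in LPS-treated and untreated resident macrophages, against 66.8 and 67.7 and 162 and 170 in LPS-treated and untreated BMDM. Sirt5, which removes succinyl and malonyl groups, had 39.7, 39.7 and 18.6 and 33, 57 and 46.7 in LPS-treated and untreated resident macrophages, against 58.6 and 43.3 and 96.6 and 96 in LPS-treated and untreated BMDM. Untreated BMDM held the highest values of Sirt4 and Sirt5, whereas Sirt3 overlapped between the untreated groups. In BMDM Sirt3 fell (-1.78 ± 0.35, adjusted p = 0.00133) and Sirt4 (-1.29 ± 0.25, adjusted p = 0.00119), and Sirt5 was not called (-0.92 ± 0.39, adjusted p = 0.0681). The difference of responses was 1.58 ± 0.45 (adjusted p = 0.017) for Sirt3 and 1.07 ± 0.32 (adjusted p = 0.0215) for Sirt4. That of Sirt3 was lost without LPS-treated BMDM replicate 2 (adjusted p = 0.0864) or untreated BMDM replicate 1 (adjusted p = 0.0794), and that of Sirt4 without any 1 of the 4 BMDM libraries (adjusted p 0.0618 to 0.0802). Untreated, resident macrophages were lower for Sirt4 (-1.87 ± 0.23, adjusted p = 3.43e-05) and Sirt5 (-1.10 ± 0.36, adjusted p = 0.0185). Leaving out untreated resident replicate 1 (adjusted p = 0.05), untreated BMDM replicate 1 (adjusted p = 0.0799) or replicate 2 (adjusted p = 0.0775) lost the Sirt5 call.

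Partners of these enzymes were counted from lists of genes. The list counts were not repeated in the alternative settings, so their dependence on the scaling was not tested. Over all genes tested, 28.3% rose and 29.5% fell with LPS in BMDM, and 7.36% rose and 5.57% fell in resident macrophages. Of 25 Polycomb partners 10 rose and 10 fell with LPS in BMDM (median -0.14), with Pcgf5, a subunit of variant Polycomb complexes, up by 3.94 ± 0.10 and the chromobox gene Cbx8 at -3.03 ± 0.39. In resident macrophages 6 rose and none fell (24% higher), led by Jarid2 (0.49 ± 0.10) and Pcgf5 (0.46 ± 0.08). Histone acetyltransferases, which act against the deacetylases, rose in 7 and fell in 4 of 13 with LPS in BMDM (median 0.40), and none of 13 was called in resident macrophages. In BMDM Kat2b rose by 2.35 ± 0.09 and Kat6b fell by 2.01 ± 0.23. Of 25 corepressor partners 8 rose and 9 fell in BMDM (median 0.14), with Mier3 and Sap30 up by 3.78 ± 0.12 and 3.10 ± 0.12, and in resident macrophages 3 rose and 2 fell, with Mier3 up by 0.70 ± 0.10.

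DNA methylation partners fell in 6 and rose in 3 of 12 with LPS in BMDM (median -0.45). Uhrf1, which guides Dnmt1 to replicated DNA, fell by 1.96 ± 0.31, and Gadd45b, linked to demethylation, rose by 2.73 ± 0.16 in BMDM and 0.80 ± 0.13 in resident macrophages. Acetyl-lysine readers rose in 7 and fell in 6 of 16 in BMDM (median 0.09), with the BET family gene Brd2 up by 1.74 ± 0.12 and Atad2 at -1.93 ± 0.23. Untreated resident macrophages were higher than untreated BMDM in 9 of these 16 genes and lower in none, a share of 56.2% where 39.2% of all genes were higher. Cofactor genes rose in 4 and fell in 6 of 17 in BMDM (median -0.12). Nampt, which makes the NAD that sirtuins consume, rose by 3.19 ± 0.10 in BMDM and 0.58 ± 0.08 in resident macrophages, and Cd38, which degrades NAD, rose by 4.97 ± 0.23 in BMDM. MLL complex partners ran from -0.47 to 0.44 in BMDM, with 3 rising and 4 falling of 11, other methyltransferases rose in 5 and fell in 6 of 16, and other JmjC proteins rose in 3 and fell in 2 of 6.

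**Figure D5:**
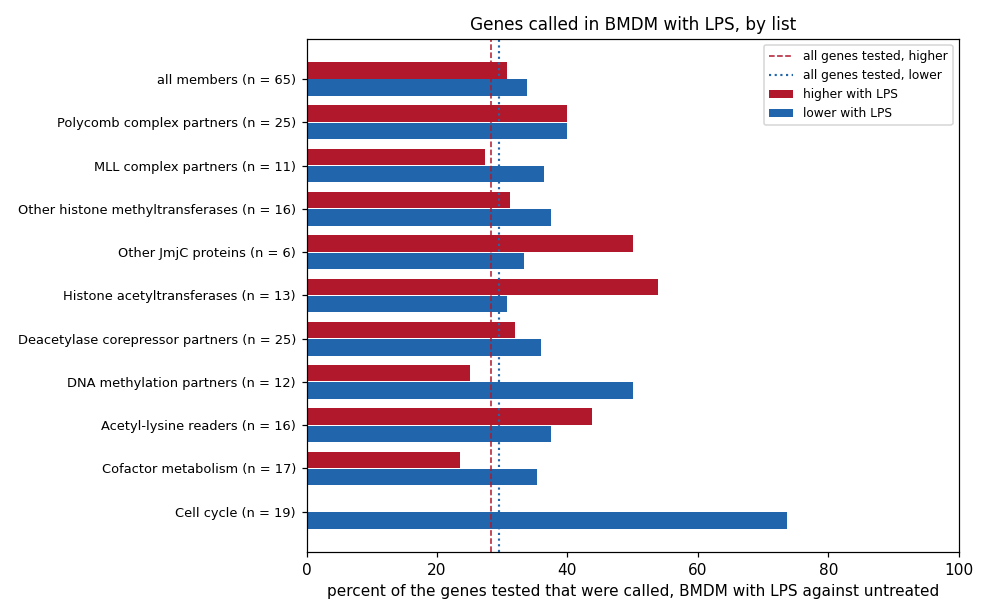
Percent of the genes tested in each list that were called higher (red) or lower (blue) with LPS in BMDM, against untreated BMDM. The lines give the percent over all genes tested, 28.3 higher and 29.5 lower. Cell cycle genes stand out with 73.7% lower and none higher. Partner and cell cycle counts were not repeated at equal library totals.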

How the data were processed

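RNA sequencing values came from 1 table of 13809 genes deposited by the authors, with 1 row for each of the 10 libraries. The unit is a normalized signal per gene, deposited by the authors as read counts divided by 1 factor per library. That was read from the values, which are whole multiples of a step within each library (tolerance 0.02 of a step). The lowest value in the table is 1, taken here as its floor. HISAT 0.1.7 and the mm10 build are named in the submitters' processing notes; how reads were trimmed, annotated and counted, and on which strand, is not given in the sources used here. Libraries were not pooled in the table.

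Groups came from the sample labels. In R 4.3.3, limma 3.58.1 with a variance trend was fitted to log2 of the value plus 1 in 4 groups, with 6 residual degrees of freedom, over 13755 genes that reached 10 in 2 or more libraries (54 left out). The 5 contrasts were LPS in each origin, origin under each treatment and the difference of the LPS responses between origins. P-values were adjusted by Benjamini-Hochberg within each contrast and called under 0.05. The fit was tested on simulated data with few changed genes and no shift in library totals, so that test does not bear on the scaling.

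Members, gene lists and tests were chosen with earlier results of these data known. Values in every library are printed for members called with an absolute log2 change of at least 1, a mean of at least 20 in the higher group and groups that did not overlap, and for Kdm6b, Ezh2, Dnmt1, Dnmt3a, Tet2, Hdac1, Sirt1 and Kmt2a; other members whose values are printed were named after their values were seen. Lists covered Polycomb and MLL complex partners, other methyltransferases, other JmjC proteins, acetyltransferases, corepressors, DNA methylation partners, acetyl-lysine readers, cofactor metabolism, cell cycle and markers of marrow cells (214 of 222 genes in the table). Gene coordinates and exon lengths are from GENCODE M21 (64 members matched) and promoters from RefSeq. A fold at low values was taken from recovered reads with an exact Poisson interval, which covers counting error only.

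Alternatives were pseudocounts of 0.1 and 10, a minimum of 100 or none at all, recomputed median-ratio factors, quantile normalization, equal library totals, no variance trend, a fit of only the groups compared, leaving out each library in turn, and leaving out or adding a term for replicate 1 of both resident groups. A voom fit on recovered reads was added after seeing the data. One gene of the corepressor list is not reported here.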

Additional observations from a re-analysis of the deposited data

Results flagged for a closer look

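The difference of LPS responses, resident minus BMDM, passed the test of that difference in the limma fit for 32 of the 65 genes. Of these, 17 were higher and 15 lower (26.2% and 23.1%), where 19% of all genes tested were higher and 22.8% lower. Adjusted p ran from 1.34e-07 (Setdb2) to 0.0456 (Prmt1). All values are differences of log2 changes.

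Differences above 0, where the change with LPS was the higher one in resident macrophages, were 3.10 for Hdac5, 2.07 for Hdac11, 2.03 for Dnmt1, 1.58 for Sirt3, 1.57 for Kdm2b, 1.49 for Setd7, 1.15 for Hdac7, 1.15 for Tet3 and 1.11 for Hdac10. Smaller ones were 1.07 for Sirt4, 1.06 for Hdac4, 0.86 for Setdb1, 0.84 for Prmt3, 0.80 for Prmt7, 0.79 for Dnmt3a, 0.68 for Prmt5 and 0.44 for Kdm5b. All 17 of these genes fell with LPS in BMDM. The BMDM change is subtracted in the difference, so this match of signs is partly built in and is no separate result.

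Differences below 0 were -3.61 for Setdb2-phf11c, -3.48 for Setdb2, -1.48 for Tet2, -1.43 for Hdac9, -1.40 for Hdac1, -1.40 for Kdm4a and -1.25 for Kdm6b. Smaller ones were -0.75 for Setd8, -0.65 for Kdm1a, -0.62 for Setd1b, -0.59 for Kdm5a, -0.43 for Setd5, -0.39 for Kdm2a, -0.36 for Kdm3b and -0.28 for Prmt1. Of these 15 genes, 13 rose with LPS in BMDM, and Kdm2a and Prmt1 were not called there. Here too the BMDM change is part of the difference.

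Leaving out 1 library ended the call of Kdm5b in 6 of 10 cases (adjusted p 0.0592 to 0.172), of Prmt1 in 8 (0.058 to 0.212), of Kdm2a in 4 (0.05 to 0.0695), of Kdm3b in 3 (0.0518 to 0.113), of Setd1b in 3 (0.0503 to 0.0864) and of Setd5 in 2 (0.0537 to 0.0767).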

How the results depend on the processing

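Of the member calls, 3 of 9 with LPS in resident macrophages, 28 of 42 with LPS in BMDM, 34 of 46 between untreated origins, 37 of 50 between LPS-treated origins and 19 of 32 in the difference of responses held in every alternative run. Equal library totals moved the median over all genes to -0.12 with LPS in resident macrophages, -0.64 with LPS in BMDM, -0.08 between untreated origins, 0.35 between LPS-treated origins and 0.48 in the difference. Members called with LPS in resident macrophages were then 4 higher and 5 lower, against 8 and 1 as deposited. The lower count was 2 with a pseudocount of 0.1, 2 after quantile normalization, 2 without the variance trend, 6 with a term for both replicate 1 libraries and 3 without them, and the fit of only the groups compared called 4 higher and 0 lower. Over all genes that contrast called 1779, against 3449 with the term, 2840 without both replicate 1 libraries and 529 with only the groups compared. In BMDM 20 higher and 22 lower became 8 and 43 at equal totals, and 13 were higher after quantile normalization. Equal totals also left 13 of 20 lower members between LPS-treated origins, and gave 30 higher and 7 lower differences of responses against 17 and 15.

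Without 1 library at a time, LPS in resident macrophages called 5 to 9 members higher, 0 to 4 lower and 970 to 2287 genes in all. LPS in BMDM called 16 to 22, 21 to 24 and 6408 to 8536. The untreated origins gave 22 to 24, 15 to 23 and 8367 to 10058, the LPS-treated origins 26 to 31, 17 to 22 and 8370 to 10285, and the difference of responses 12 to 18, 10 to 16 and 4303 to 5951.

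Counting only changes called in the main or the alternative fit, signs turned round only at equal totals or after quantile normalization. In BMDM, equal totals gave -0.34 for Ezh1, -0.13 for Hdac2, -0.43 for Kdm2a, -0.22 for Kdm3b, -0.38 for Kdm4c, -0.15 for Kdm7a, -0.40 for Kmt2a, -0.24 for Kmt2d, -0.47 for Kmt2e, -0.42 for Prmt1, -0.39 for Prmt2, -0.55 for Prmt9, -0.07 for Setd1b, -0.31 for Setd2, -0.26 for Setd3, -0.19 for Setd5, -0.44 for Sirt2 and -0.17 for Sirt6. Quantile normalization gave -0.31 for Kdm2a, -0.07 for Kdm3b, -0.02 for Kdm7a, -0.16 for Kmt2d, -0.11 for Setd2, -0.23 for Setd3 and -0.46 for Sirt2. Between LPS-treated origins, equal totals gave 0.32 for Kdm2a and 0.10 for Kdm3b. In the difference of responses, quantile normalization gave 0.04 for Kdm2a, 0.06 for Kdm3b, 0.03 for Prmt1 and 0.38 for Sirt2, and equal totals gave 0.10 for Kdm2a, 0.13 for Kdm3b, 0.21 for Prmt1, 0.06 for Setd5 and 0.28 for Sirt2. The cause was not tested.

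No paired analysis was run, because the replicate numbers were given in accession order and no label pairs libraries across groups. The counts for LPS in resident macrophages therefore come from an unpaired fit. Some members, such as Hdac7 and Hdac10, increased from replicate 1 to replicate 3 in both resident groups, and others, such as Setdb2, did not. Whether these libraries share animals was not tested. The fit with a term for both resident replicate 1 libraries, which share Y-linked transcripts, is given above. The planned edgeR quasi-likelihood fit was not run, since the deposited values are not counts. With 2 or 3 libraries a group, members at a few reads (Tet1 in BMDM, Hdac11 in LPS-treated BMDM and Dnmt3aos in resident libraries) carry wide counting intervals.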

Other observations

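The 19 cell cycle genes were 11 higher and 1 lower in LPS-treated resident macrophages than in LPS-treated BMDM, where 36.7% of all genes tested were higher and 34.5% lower. Among untreated cells 0 were higher and 4 lower. The difference of responses was called higher for 13 of these 19 and lower for none, where 19% of all genes were higher and 22.8% lower. Cofactor genes were 4 higher and 10 lower of 17 in untreated resident macrophages, against untreated BMDM. Acetyltransferase genes were 9 higher and 2 lower of 13 in the same comparison, corepressor partners 13 higher and 7 lower of 25, and other JmjC proteins 4 higher and 1 lower of 6. Of the 5 T and NK cell markers 4 were higher in resident macrophages under either treatment, and Klrb1c was lower among untreated cells (-2.89). Over all genes tested, 39.2% were higher and 32.6% lower among untreated cells.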
